A study of Trachinotus blochii with 22 samples.

Results

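In golden pompano (Trachinotus blochii), a marine teleost, liver small RNA was compared between fish in 3 h of gradual reoxygenation and fish at the hypoxia 0 h sampling. Each miRNA entry listed at 1 CPM (a count per 1000000 counts in the library) or more in at least 2 of the 6 libraries of these groups was taken. This left 547 of 1400 distinct entries, after 708 repeats with identical values in every library had been removed from 2108 deposited ones. The design sets liver miRNAs while oxygen is restored at a slow rate against those at the hypoxia 0 h sampling. Treatment and labelled hour differ together between these groups. No hypoxia or normoxia group of the series was labelled 3 h, so treatment and hour cannot be told apart.

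The whole series holds 22 liver libraries in 8 groups, with normoxia and hypoxia each sampled at 0 h and 12 h, and the rapid and gradual forms of reoxygenation each sampled at 3 h and 12 h. Both groups compared here hold 3 libraries each, labelled by treatment and hour alone. Oxygen levels, the length of the hypoxia, the age of the fish and the moment from which the hours were counted are not stated in the labels. Whether each library is a fish of its own is not stated either, so p-values describe the spread among these libraries, which may be technical. The deposited columns carry letters rather than treatment names: the column letter C was read as gradual reoxygenation and Mix as hypoxia, because the number of columns and the hours match only in that way. All results rest on that reading.

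MicroRNAs are short RNAs that guide silencing proteins to partly complementary messenger RNAs and reduce their translation or stability. In vertebrate liver miR-122 is the dominant miRNA of hepatocytes, and low oxygen is known to induce miR-210 through hypoxia-inducible factors. Reoxygenation brings oxidative stress and DNA damage signalling, through which p53 is known to induce miR-34a. Entry prefixes (hsa for human, dre for zebrafish, ola for medaka and so on) name the species in which the matching miRNA was catalogued, and every RNA measured here came from pompano. Matching names can share the same reads: joining entries that lie within 0.2 log2 of each other in every library puts the 547 entries into 377 sets. Members joined through another entry can lie further apart, and scarce entries can be joined without sharing reads. Counts of entries are therefore larger than counts of miRNAs. The sources used here give no strand of counting, so reads of overlapping or antisense precursors could not be told apart.

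Summed over all entries the 6 libraries held 24.8 to 33.8 M read matches (M, 1000000), a sum that counts a read once in each entry it matches and so overstates the reads. On that sum 1 read was worth 0.0296 to 0.0404 CPM, and 491 to 516 entries reached 1 CPM in each. The main marker of the labelled tissue was present: entries named miR-122 took 41.9 to 48.2% of all CPM in the gradual libraries and 34.7 to 41.9% in the hypoxia libraries. These sums count a read once in each miR-122 entry it matches, so they are not shares of reads. The most abundant entry alone, oha-miR-122-5p, was at a mean of 95037 CPM in gradual and 81761 CPM in hypoxia. Gradual library 1 stood apart from the other 2 of its group. Its root mean square log2 distance was 0.820 to gradual library 2 and 0.818 to gradual library 3, while those lay 0.340 from each other. Pairs of hypoxia libraries lay 0.653 to 0.761 apart, and pairs across the groups 0.752 to 1.12 apart. Outside these groups, 1 of the 2 normoxia 0 h libraries lay 1.33 from the median of all 22 libraries, against 0.346 to 0.896 for the others. It enters the estimate of spread that all 8 groups share, so results are given with and without it where this matters.

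With all 8 groups sharing their estimate of spread, 0 of 547 entries (0%) passed an adjusted p of 0.05 by limma on log2(CPM + 1) with Benjamini-Hochberg adjustment. By the same limma test 84 entries (15.4%) had an unadjusted p under 0.05, of which 36 (6.58%) were at higher levels in gradual reoxygenation and 48 (8.78%) at lower levels. edgeR on reads recovered from the CPM also passed 0 entries, with 85 at an unadjusted p under 0.05. The smallest adjusted p by limma was 0.0719, shared by miR-34a-5p and miR-144-3p. Over all entries 299 had a positive and 248 a negative log2 change, with a median of 0.04 and a median standard error of 0.33. Log2 changes ran from -3.997 to 1.88, with 14 entries above 1 and 47 below -1. Of the 47, 15 were under 1 CPM in every gradual library, so the filter fixed their direction. The libraries of the groups did not overlap for 174 entries (31.8%), of which 82 (15%) were higher and 92 (16.8%) lower in gradual reoxygenation, shares to which the counts without overlap in the lists below compare. Among the 92 lower, 16 were under 1 CPM in every gradual library, and among the 82 higher, 7 in every hypoxia library. The filter fixed the direction of these entries. For any single miRNA an exact permutation test of 3 against 3 libraries cannot give a two-sided p below 0.1.

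Fitted on the 6 libraries alone, limma passed 14 entries (2.56%), 6 higher (1.1%) and 8 lower (1.46%) in gradual reoxygenation. The higher ones were 2 entries each of miR-34a-5p and miR-144-3p, with miR-451a and miR-2188-5p. The lower ones were miR-135b, novel_493, 3 entries of miR-133 and 3 of the miR-31 type. With 8 groups but without the normoxia 0 h library that stood apart, 17 entries passed, and DESeq2 passed 18. Of the 547 entries, 21 were under 1 CPM in every gradual library and so were tested only through the hypoxia libraries, where they are high, and their direction was fixed by that filter. These include 7 of the 14, those of miR-133, miR-135b and the miR-31 type, whose calls are therefore given no weight. The same 7 were among the 17 and among the 18. The 18 also held entries of miR-184, tested only through the hypoxia libraries. Those calls are given no weight either. Another 11 entries were under 1 CPM in every hypoxia library, so the filter fixed their direction as higher. None of the 14 was among those 11. Of the 14, the 7 at 1 CPM or more in both groups were the 6 higher ones and novel_493. The 3 fits shared 11 entries in 5 sets, and outside the 21 only miR-34a-5p and miR-144-3p were among them. The fit of 6 libraries passed 0 entries once gradual library 1, gradual library 2 or hypoxia library 2 was left out, 2 without gradual library 3, 5 higher and 12 lower without hypoxia library 1, and 9 higher and 25 lower without hypoxia library 3. The lower ones without hypoxia library 1 or 3 again held the entries of miR-133, miR-135b and the miR-31 type.

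**Figure D1:**
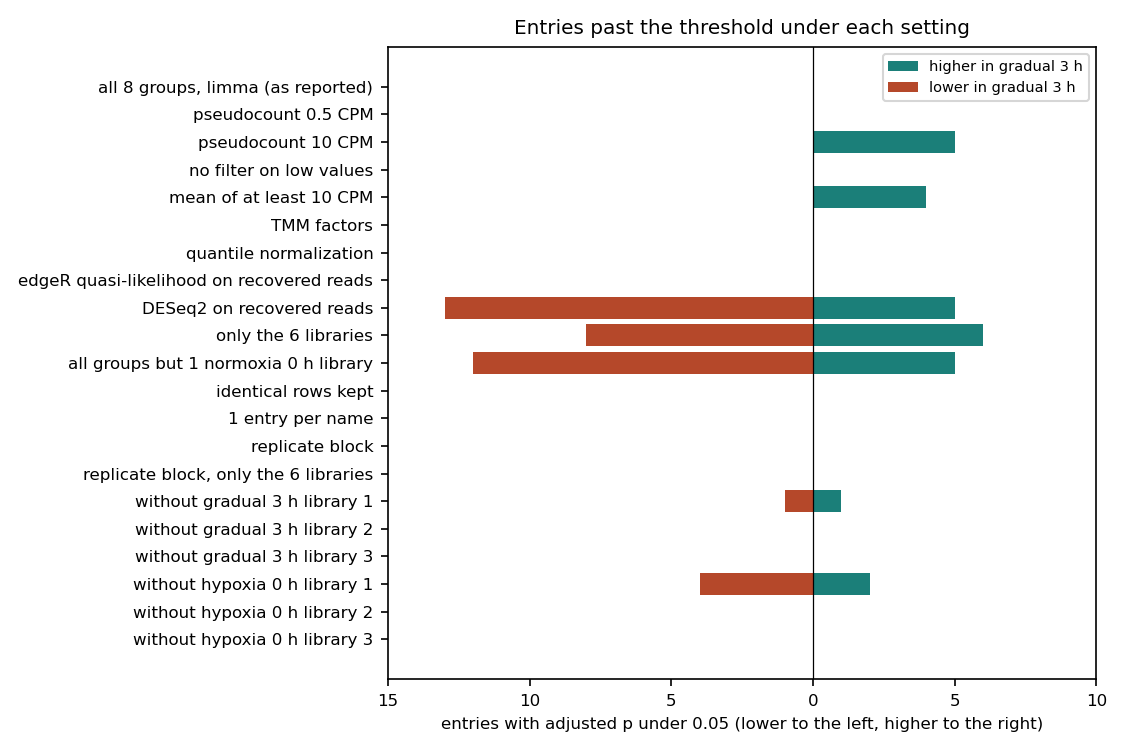
Number of entries past an adjusted p of 0.05 in the comparison of gradual reoxygenation 3 h with hypoxia 0 h, under limma with 8 groups and under each of 20 alternatives; bars to the right are higher and bars to the left lower in gradual reoxygenation. With 8 groups there are 0, and DESeq2, the 6 libraries alone and the fit without 1 normoxia 0 h library give 18, 14 and 17. The lower ones in these include entries of miR-133, miR-135b and the miR-31 type, whose direction the filter fixed.

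**Figure D2:**
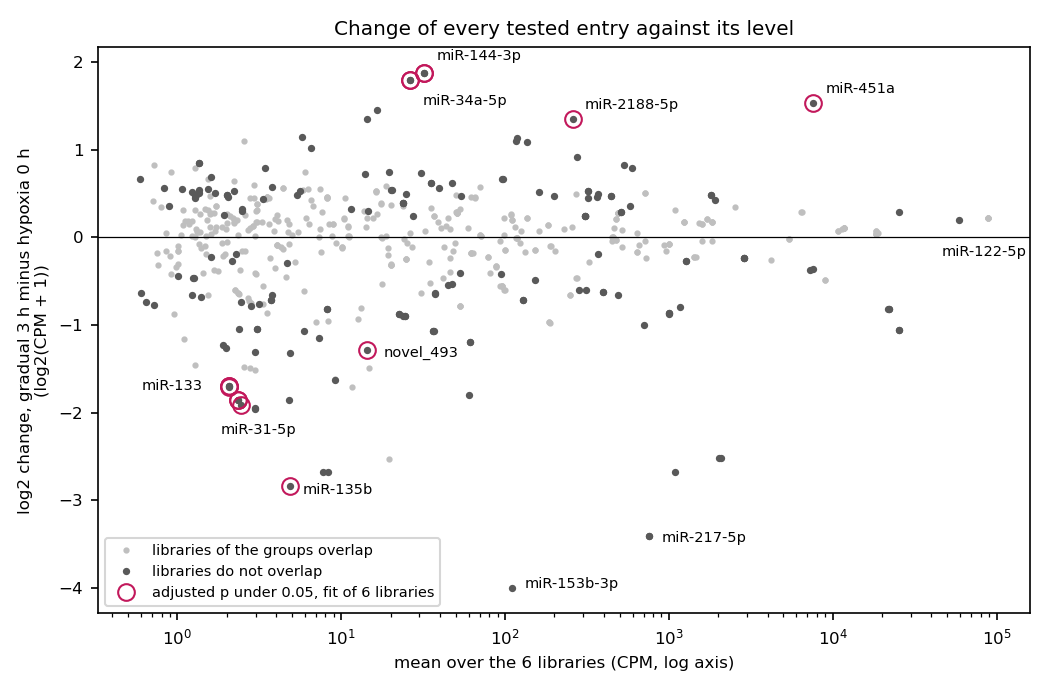
Log2 change between gradual reoxygenation at 3 h and hypoxia at 0 h (vertical axis, log2(CPM + 1)) against the mean level over the 6 libraries (horizontal axis, CPM on a log axis) for the 547 tested entries. Dark points are entries whose libraries do not overlap between the groups, and rings mark the 14 entries past an adjusted p of 0.05 in the limma fit of the 6 libraries, which lie on both sides of 0. Of the ringed entries below 0, 7 were under 1 CPM in every gradual library, so the filter fixed their direction.

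The miRNA with the smallest p was miR-34a-5p, known in mammals as a direct transcriptional target of p53 that restrains the cell cycle. Its entry hsa-miR-34a-5p was at 34.6, 47.3 and 39.8 CPM in gradual libraries 1 to 3 and at 16.9, 12.1 and 6.17 CPM in hypoxia libraries 1 to 3. All 3 gradual libraries lay above all 3 hypoxia libraries, with means of 40.6 ± 6.42 and 11.7 ± 5.37 CPM (SD, n = 3 each). The log2 difference was 1.80 ± 0.40 (SE, 95% interval 0.95 to 2.64), with a limma adjusted p of 0.0719 over 8 groups and 0.0403 over the 6 libraries. With each of the 6 libraries left out in turn, the limma difference over 8 groups ran from 1.43 to 2.09, with adjusted p from 0.0241 to 0.274. The value of 2.09 with an adjusted p of 0.0241 came without hypoxia library 1, the highest of its group. The difference was 1.43 without hypoxia library 3, the lowest. miR-34a-5p passed in 6 of the 20 alternatives and kept its direction in all 20. It did not pass in edgeR on the 6 libraries, a fit chosen after seeing the data. No other member of the miR-34 family gave a tested entry of its own: hsa-miR-34a-5p has the same values as an entry named miR-34b-5p.

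Over the 8 groups the gradual 3 h libraries held the highest miR-34a-5p levels, 34.6 CPM at the least, while the highest library of any other group was at 23.1 CPM, in normoxia 0 h. The mean was 13.2 ± 3.11 CPM after 3 h of rapid reoxygenation, 16.03 ± 7.14 CPM after 12 h of gradual reoxygenation (SD, n = 3 each), and 8.69 to 19.3 CPM in the remaining groups. Tested directly between gradual and rapid reoxygenation at 3 h, the difference was 1.56 ± 0.40 on the log2 scale with a limma adjusted p of 0.159.

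By p miR-144-3p, of the list of red blood cell miRNAs, came next. In vertebrates miR-144 and miR-451 are made from a single transcript switched on by GATA1 during red cell maturation, and miR-2188 stands on the same list. The entry xla-miR-144-3p was at 58.1, 59.3 and 36.4 CPM in the gradual libraries and at 14.4, 11.3 and 13.2 CPM in the hypoxia libraries. The groups did not overlap, and gradual library 3, the lowest of its group, was still above the highest hypoxia library. This gave a log2 difference of 1.88 ± 0.44, the largest positive value among the 547 entries, with a limma adjusted p of 0.0719 over 8 groups and 0.0293 over the 6 libraries. The more abundant ola-miR-144, whose name gives no arm, was at 244, 168 and 142 CPM against 87.1, 60.5 and 112 CPM, a log2 difference of 1.09 ± 0.39 with a limma adjusted p of 0.241. Its groups did not overlap either.

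The most abundant of these, hsa-miR-451a, was at 11684, 12623 and 9316 CPM in the gradual libraries and at 4590, 2614 and 4737 CPM in the hypoxia libraries. Every gradual library lay above every hypoxia library, with hypoxia library 2 the lowest. The log2 difference was 1.53 ± 0.51, with a limma adjusted p of 0.204 over 8 groups and 0.0376 over the 6 libraries. Over the libraries of the other groups miR-451a ranged from 809 CPM in a normoxia 0 h library to 13717 CPM in a normoxia 12 h library. dre-miR-2188-5p was at 455, 360 and 298 CPM against 153, 110 and 172 CPM, again without overlap. Its log2 difference was 1.35 ± 0.49, with a limma adjusted p of 0.242 over 8 groups and 0.0376 over the 6 libraries.

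As a list, the erythroid miRNAs had 3 of 3 tested members higher and without overlap, 0 past the limma test over 8 groups and a median log2 change of 1.35, beside 0.04 over all entries. Their summed level was 9755 to 13151 CPM in gradual reoxygenation and 2784 to 5021 CPM in hypoxia. In bulk liver, a larger share of a cell type and more RNA per cell cannot be told apart, here and in every list below. In the 8 groups miR-451a was at a mean of 11335 ± 3743 CPM in normoxia 12 h, a range that overlaps the 11208 ± 1705 CPM of gradual reoxygenation at 3 h (SD, n = 3 each). Means of the remaining 6 groups were 1550 to 3980 CPM, among them 3477 ± 1023 CPM after 3 h of rapid reoxygenation. The direct log2 difference between gradual and rapid reoxygenation was 1.72 ± 0.51 for miR-451a and 1.54 ± 0.44 for miR-144-3p, each with a limma adjusted p of 0.234.

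**Figure D3:**
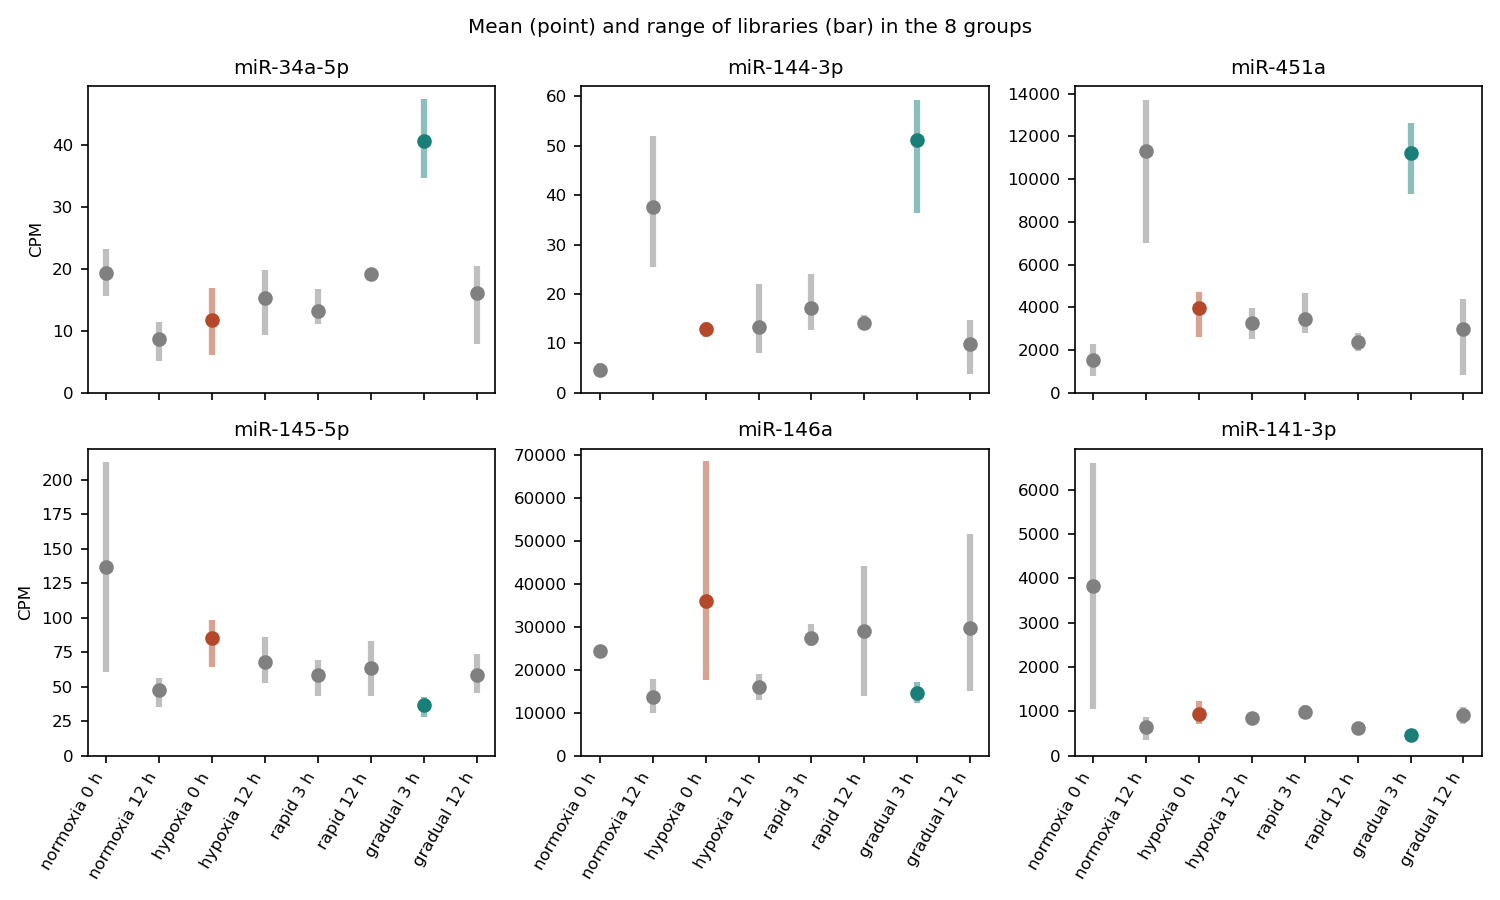
Mean (point) and range (bar) of 6 miRNAs in CPM in each of the 8 groups, with gradual reoxygenation 3 h in green and hypoxia 0 h in red. Gradual 3 h holds the highest miR-34a-5p range, shares its miR-451a range with normoxia 12 h, and has the lowest mean of miR-145-5p.

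**Figure D4:**
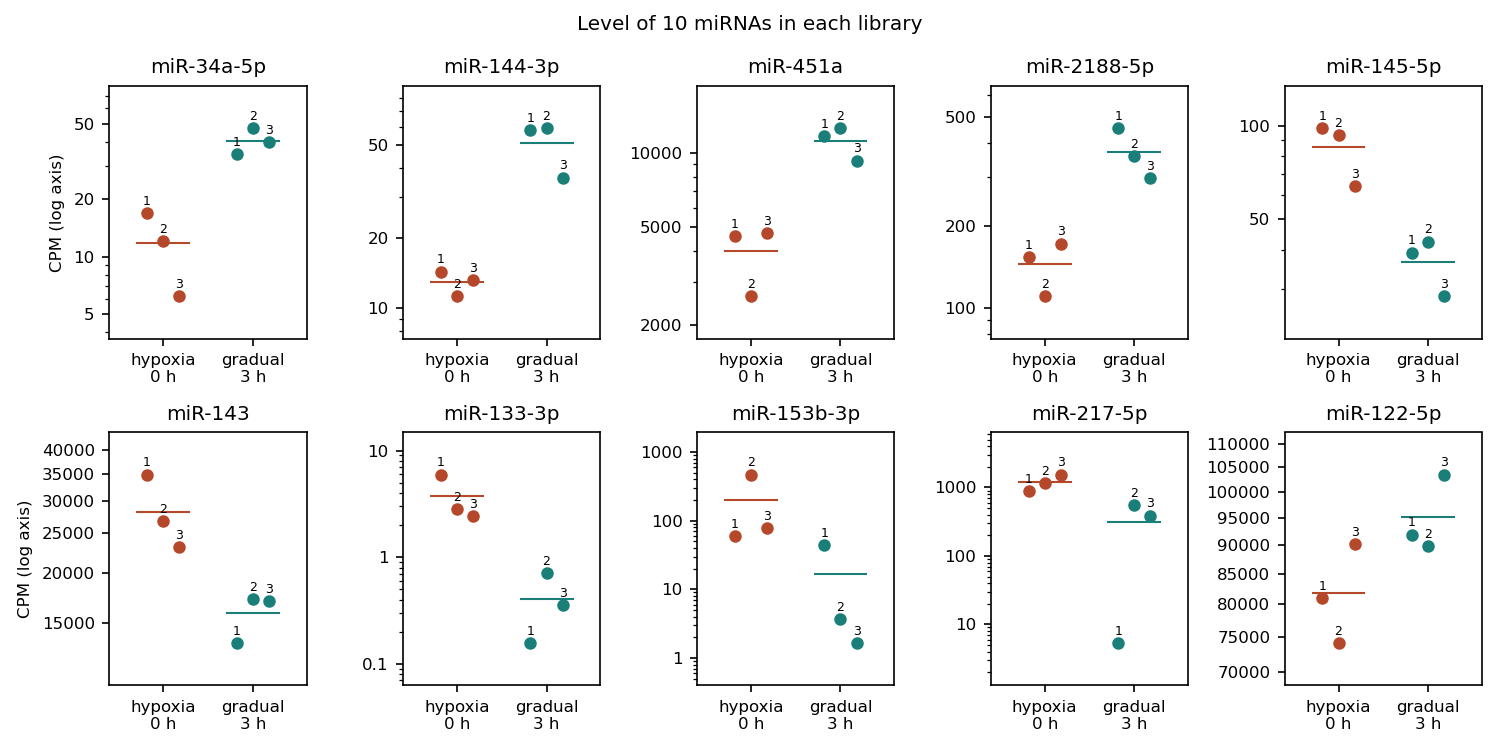
Level in CPM (log axes) of 10 miRNAs in the 3 hypoxia 0 h and the 3 gradual reoxygenation 3 h libraries; points are libraries with their number and lines are group means. miR-34a-5p, miR-144-3p, miR-451a and miR-2188-5p lie higher in all gradual libraries, miR-145-5p, miR-143, miR-133-3p, miR-153b-3p and miR-217-5p lower, and miR-122-5p overlaps. For miR-133-3p the filter fixed the direction.

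miRNAs linked to low oxygen were spread to both sides of 0. Among 16 tested members of that list 10 were higher and 6 lower, with a median log2 change of 0.06, and these became 3 higher and 13 lower with a median of -0.15 once gradual library 1 was left out. dre-miR-210-5p, named for the miRNA that hypoxia-inducible factors induce, was at 24.5, 12.1 and 10.9 CPM in gradual and at 13.7, 10.5 and 13.8 CPM in hypoxia. These ranges overlapped, and only gradual library 1 stood above the hypoxia libraries. The log2 difference was 0.22 ± 0.34 (95% interval -0.49 to 0.93, limma adjusted p = 0.765), and -0.12 without gradual library 1. This entry has the values of an entry named gga-miR-210b-3p as well, so its arm is uncertain.

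The fish miRNAs miR-462 and miR-731 lie in a cluster that zebrafish induces in low oxygen. dre-miR-462 was at 267, 235 and 177 CPM against 273, 445 and 242 CPM, and the groups overlapped (log2 difference -0.47 ± 0.40, limma adjusted p = 0.603, and -0.20 without hypoxia library 2). ssa-miR-731-5p was at 61.2, 39.7 and 43.1 CPM against 36.6, 54.3 and 43.3 CPM, which also overlapped (0.09 ± 0.39 by limma, 95% interval -0.72 to 0.91, adjusted p = 0.932). miR-21, which rises in injured and inflamed liver of mammals, was at 8462, 7145 and 6557 CPM against 9363, 14518 and 8074 CPM in the entry dre-miR-21. Its groups overlapped, and the limma log2 difference was -0.49 ± 0.24 with an adjusted p of 0.356, and -0.24 without hypoxia library 2, the highest.

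The list for oxidative stress and p53 had 5 members higher and 8 lower of 13 tested, with a median of -0.32. Those higher were miR-34a, miR-144, miR-451, miR-215 and miR-192. Those lower without overlap were miR-155, miR-146a, miR-141, miR-200a, miR-200c and miR-365. The members are shared with the erythroid, leukocyte and epithelial lists, so the lists are not separate measurements.

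Hepatocyte miRNAs differed little. Of 12 tested members 8 were higher and 4 lower, 3 without overlap and all of those higher (15% of all entries were), with a median log2 change of 0.09. Without gradual library 1 they were 6 and 6, with a median of 0.0049. The most abundant entry, oha-miR-122-5p, was at 91877, 89768 and 103466 CPM in gradual and at 80997, 74116 and 90170 CPM in hypoxia. Gradual library 2 lay between hypoxia libraries 1 and 3, so the groups overlapped. miR-122-5p thus differed by 0.22 ± 0.19 on the log2 scale (95% interval -0.18 to 0.62, limma adjusted p = 0.604). A further abundant entry, rno-miR-122b, was at 60828, 59940 and 68017 CPM against 55427, 50594 and 58218 CPM. Its groups did not overlap, with a limma log2 difference of 0.20 ± 0.21 and an adjusted p of 0.670. dre-miR-22a-3p, an abundant liver miRNA, was at 32403, 25639 and 25215 CPM against 22940, 21046 and 23954 CPM. It did not overlap, with a limma log2 difference of 0.29 ± 0.15 and an adjusted p of 0.389, and of 0.17 without gradual library 1. Because CPM values are shares of a fixed sum, a difference in so abundant a miRNA moves the share left to the others.

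Metabolic miRNAs of the liver were split, 7 higher and 6 lower of 13 tested, with a median of 0.0087, but 10 and 3 with a median of 0.15 without hypoxia library 2. ola-miR-33, whose mammalian host gene is the sterol regulator SREBF and which targets cholesterol export, was at 2.83, 2.36 and 1.45 CPM against 1.09, 1.33 and 0.527 CPM. The groups did not overlap at these low levels, and the limma log2 difference was 0.69 ± 0.24 with an adjusted p of 0.204. hsa-miR-107, which lies in a pantothenate kinase gene in mammals, was at 131, 96.4 and 76.02 CPM against 102, 109 and 80.4 CPM and overlapped.

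Vascular and stromal miRNAs were divided, with 0 past the test over 8 groups. miR-143 and miR-145 come from a single cluster and mark vascular smooth muscle and stromal cells in mammals. efu-miR-143 was at 13421, 17203 and 17003 CPM in gradual and at 34859, 26727 and 23098 CPM in hypoxia, with no overlap. miR-143 had a log2 difference of -0.82 ± 0.31, with a limma adjusted p of 0.255 over 8 groups and 0.0668 over the 6 libraries. dre-miR-145-5p was at 39.1, 42.4 and 28.3 CPM against 98.2, 93.4 and 64.0 CPM, also with no overlap. Its log2 difference was -1.19 ± 0.39, with a limma adjusted p of 0.204 over 8 groups, 0.0566 over the 6 libraries and 0.0376 without the normoxia 0 h library that stood apart.

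Other members lay on the other side. The fibroblast miRNA aca-miR-199a-5p was at 2958, 1908 and 1782 CPM against 1662, 1489 and 1670 CPM, without overlap (limma log2 difference 0.43 ± 0.21, adjusted p = 0.35, and 0.20 without gradual library 1). cgr-miR-214-3p, from the same transcript as a miR-199 copy in mammals, was at 42.4, 110 and 73.3 CPM against 88.5, 67.3 and 91.5 CPM and overlapped (limma -0.22 ± 0.35, adjusted p = 0.778). The endothelial ccr-miR-221 was at 366, 424 and 338 CPM against 312, 225 and 247 CPM, without overlap (limma log2 difference 0.53 ± 0.24, adjusted p = 0.314). Of the 8 tested vascular and stromal members 3 were higher and 5 lower, with a median of -0.24, which was -0.0034 with 4 on each side after quantile normalization and 0.0018 without gradual library 1. The direct comparison with rapid reoxygenation gave -0.65 ± 0.39 for miR-145-5p and -0.34 ± 0.31 for miR-143 on the log2 scale, with limma adjusted p of 0.641 and 0.829.

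**Figure D5:**
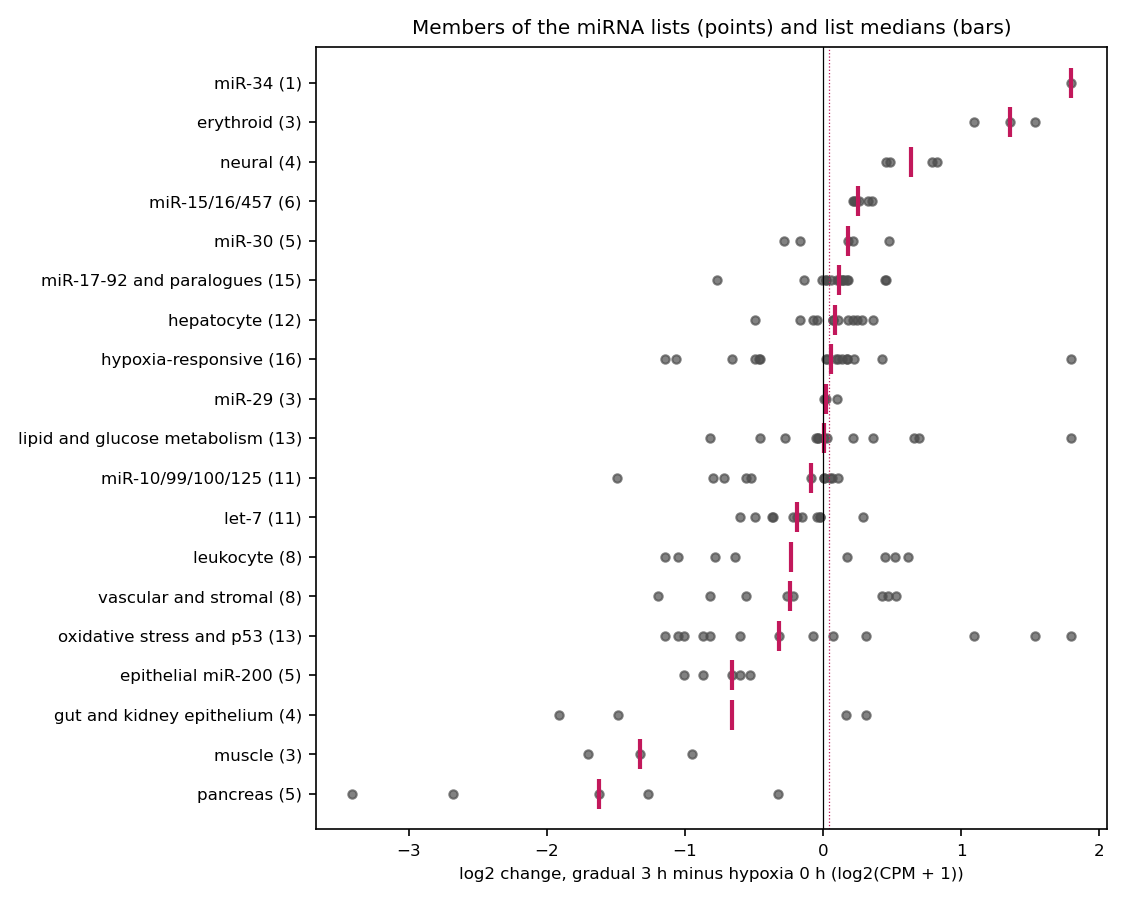
Log2 change of each tested member (points) of 19 miRNA lists, with the number of tested members in brackets and the list median as a bar; the dotted line is the median of all 547 entries, 0.04. The erythroid list lies to the right (median 1.35), and the pancreas (-1.62), muscle (-1.32) and miR-200 (-0.66) lists lie wholly to the left of 0. In the muscle list miR-133 was tested only through the hypoxia libraries, and miR-375 of the pancreas list could not reach the filter without them. The neural list leaves out miR-153b-3p, and the muscle list leaves out mmu-miR-1b-5p.

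Markers of pancreas, bile duct epithelium and striated muscle had only negative log2 changes, none past the test over 8 groups. For miR-133 among them the filter fixed the direction, and miR-375 of the pancreas list could not reach the filter without the hypoxia libraries. The erythroid list had only positive changes. Neuronal miRNAs went both ways: the 4 tested list members were higher, while miR-153b-3p, which the listed name miR-153 did not match, was lower. Teleost liver often holds exocrine pancreas tissue, in which miR-216 and miR-217 are made in vertebrates. hsa-miR-217-5p was at 5.35, 547 and 388 CPM in gradual and at 892, 1169 and 1544 CPM in hypoxia. All gradual libraries lay below all hypoxia libraries, and gradual library 1 far below its own group. For miR-217-5p the log2 difference was -3.41 ± 1.52 with a limma adjusted p of 0.314, and -1.35 with an adjusted p of 0.785 without gradual library 1. dre-miR-216b followed the same pattern at 32.9, 831 and 617 CPM against 1398, 1675 and 1940 CPM. Its limma log2 difference was -2.68 ± 1.19 (adjusted p = 0.314), and -1.21 without gradual library 1.

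The pancreas list as a whole was lower in 5 of 5 tested members, 4 without overlap (16.8% of all entries were lower without overlap), with a median of -1.62 and of -1.18 without gradual library 1. Among the 4, bfl-miR-375 was at means of 0.571 CPM in gradual and 3.41 CPM in hypoxia, and the median of -1.18 is its value. At that gradual mean it could not reach the filter without the hypoxia libraries, where it is high. Its direction is therefore given no weight. The summed level of the list was 108, 1474 and 1088 CPM in the gradual libraries and 2414, 2981 and 3570 CPM in the hypoxia libraries. Since the list moved with the groups and with gradual library 1, its part in the other differences was not tested. gmo-miR-8159-5p, for which no role is given here, had a like profile of 103, 1415 and 1049 CPM against 2600, 2579 and 4368 CPM. Its limma log2 difference was -2.52 ± 0.98 (adjusted p = 0.269), and -1.34 without gradual library 1.

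Epithelial miR-200 miRNAs, which hold epithelial identity by repressing ZEB factors and in liver mark bile duct cells, were lower in 5 of 5 members, 4 without overlap against 16.8% of all entries, with a median of -0.66. dre-miR-141-3p was at 334, 586 and 492 CPM against 1228, 902 and 705 CPM. The groups did not overlap, and the limma log2 difference was -1.004 ± 0.47 with an adjusted p of 0.314. ccr-miR-200a was at 603, 835 and 677 CPM against 1638, 1347 and 940 CPM, also apart (limma -0.87 ± 0.45, adjusted p = 0.389). The normoxia 0 h library that stood apart held miR-141-3p at 6609 CPM, the highest of the 22 libraries. Summed over the list, levels were 1493 to 2082 CPM in gradual and 2420 to 3965 CPM in hypoxia. Rapid reoxygenation at 3 h held miR-141-3p at 957, 1137 and 856 CPM, and the direct log2 difference to it was -1.09 ± 0.47 with a limma adjusted p of 0.383.

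The listed striated muscle miRNAs were scarce in all 6 libraries and lower in 3 of 3 tested members, with a median of -1.32. Without overlap were 2 of them, against 16.8% of all entries lower without overlap. These 2 include miR-133, whose direction was fixed by the filter. The remaining member, mdo-miR-206, overlapped (limma log2 difference -0.95 ± 0.94, adjusted p = 0.661). dme-miR-133-3p, of a family made in heart and skeletal muscle, was at 0.157, 0.710 and 0.355 CPM against 5.96, 2.83 and 2.45 CPM, which is 4, 22 and 12 reads against 153, 70 and 65. The groups did not overlap, but this entry was tested only through the hypoxia libraries, so its log2 difference of -1.70 ± 0.58 is given as a description. cel-miR-1-3p, the other main miRNA of striated muscle, was at 2.24, 2.36 and 1.98 CPM against 12.1, 6.50 and 4.18 CPM, without overlap (limma -1.32 ± 0.54, adjusted p = 0.296). Summed levels of the listed muscle members were 3.58 to 8.81 CPM in gradual and 16.4 to 36.3 CPM in hypoxia. The entry mmu-miR-1b-5p, which the listed name miR-1 did not match, is not counted there. It was more abundant, at means of 21.8 CPM in gradual and 98.8 CPM in hypoxia. Its limma log2 difference over 8 groups ran from -2.39 to -1.17 with each library left out, with adjusted p from 0.302 to 0.628.

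A further set of scarce miRNAs was tested only through the hypoxia libraries, being under 1 CPM in every gradual library, and is described without a test. ola-miR-135b was at 0.0394, 0.355 and 0.355 CPM against 17.9, 6.82 and 3.72 CPM, and gradual library 1 holds 1 read of it. gga-miR-31-5p was at 0.472, 0.355 and 0.207 CPM against 8.14, 3.03 and 2.48 CPM. dme-miR-184-3p, known from lens and corneal epithelium in mammals, was at 0.905, 0.839 and 0.473 CPM against 2.18, 11.2 and 34.0 CPM, with a wide spread among the hypoxia libraries. None of these overlapped between the groups. Gut and kidney epithelium, to which miR-31 was listed, had 2 members higher and 2 lower of 4 tested, with a median of -0.66, and 1 higher and 3 lower without gradual library 1. Its most abundant member, hsa-miR-215-5p, was at 1220, 1218 and 1137 CPM against 1326, 752 and 883 CPM and overlapped (limma 0.31 ± 0.42, adjusted p = 0.752).

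White blood cell miRNAs were divided, 4 higher and 4 lower of 8 tested, with a median of -0.23 that became 0.08 without hypoxia library 2. dre-miR-146a, which dampens NF-kappaB signalling, was at 12198, 17078 and 14250 CPM in gradual and at 17531, 68553 and 21994 CPM in hypoxia. The groups were apart by a narrow gap, and hypoxia library 2 was far above the rest. The limma log2 difference was -1.05 ± 0.49 (adjusted p = 0.314), and -0.45 without hypoxia library 2. hsa-miR-155-5p, induced in activated immune cells, was at 4.72, 3.81 and 3.82 CPM against 12.1, 11.9 and 7.49 CPM, without overlap (limma -1.14 ± 0.47, adjusted p = 0.296).

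Other leukocyte miRNAs stood differently. The lymphocyte miRNA mze-miR-150 was at 32.0, 29.7 and 24.6 CPM against 38.4, 54.3 and 43.9 CPM, without overlap (limma -0.64 ± 0.30, adjusted p = 0.314). pbv-miR-142-5p, found across blood lineages, was at 49.3, 42.5 and 35.8 CPM against 35.5, 27.3 and 20.7 CPM. Its groups were separated by under 1 CPM, and the limma log2 difference was 0.62 ± 0.44 with an adjusted p of 0.567. The granulocyte miRNA ola-miR-223 was at 9.995, 16.01 and 10.7 CPM against 6.54, 8.20 and 11.4 CPM and overlapped (limma 0.45 ± 0.32, adjusted p = 0.567, and 0.26 to 0.64 with each library left out).

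The largest negative difference was in dre-miR-153b-3p, of a family enriched in neurons. It was at 44.3, 3.65 and 1.66 CPM in gradual and at 59.9, 469 and 78.5 CPM in hypoxia. Gradual library 1 came close to hypoxia library 1, while hypoxia library 2 was several times the others. The limma log2 difference was -3.997 ± 1.06 with an adjusted p of 0.156. It was -5.23 with an adjusted p of 0.0466 without gradual library 1, and -3.08 with an adjusted p of 0.423 without hypoxia library 2. Rapid reoxygenation at 3 h had 136, 153 and 156 CPM, and the direct limma difference was -4.17 ± 1.06 on the log2 scale with an adjusted p of 0.159.

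Other neuronal miRNAs lay on the other side: 4 of 4 tested members of that list were higher, with a median of 0.64. The listed name miR-153 did not match miR-153b-3p, so its fall is not counted there. Without overlap were 2 of the 4, against 15% of all entries higher without overlap. Among the 4, ola-miR-124-5p, at means of 1.24 and 0.194 CPM, was tested only through the gradual libraries, so the filter fixed its direction. mmu-miR-128-3p was at 977, 643 and 642 CPM against 437, 402 and 444 CPM. The groups did not overlap, and hypoxia libraries were close together (limma log2 difference 0.79 ± 0.31, adjusted p = 0.269).

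Differences in several families were small. All 6 tested members of the miR-15, miR-16 and miR-457 family, which restrain the cell cycle, were higher, 1 without overlap, with a median of 0.25. In the let-7 family, which promotes differentiation, 10 of 11 members were lower, with a median of -0.19, and 8 of 11 with TMM factors. Without overlap were 5 of those, against 16.8% of all entries. The 5 include cel-let-7-5p (means of 6652 and 8560 CPM) and bfl-let-7b (6331 and 8220 CPM), which are close in level and may share reads. let-7e and let-7k, which overlapped between the groups, share their reads. The proliferation-linked miR-17-92 cluster and its paralogues had 12 of 15 members higher with a median of 0.11, but 5 of 15 with a median of -0.03 without gradual library 1. Over all entries the median itself shifted from 0.04 to -0.03 without that library. In the miR-17-92 list, miR-17 and miR-17a had the same mean of 72.4 CPM in gradual reoxygenation and may share reads. The miR-29 family, which restrains collagen production, had a median of 0.02 over 3 members, and -0.02 without gradual library 1. The miR-30 family had 0.18 over 5 members, and -0.0029 without it.

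A joint list of miR-125, miR-100, miR-99 and miR-10 members had 5 of 11 higher and 6 lower. These counts became 0 and 11 without hypoxia library 2, and 3 and 8 without gradual library 1. Its tested miR-10 members were all lower, with log2 changes from -1.49 (miR-10a) to -0.52 (miR-10d). Of these only miR-10c was without overlap. The higher ones were miR-125c, miR-99b, miR-100, miR-125b and miR-125, at 0.0042 to 0.11, and all of them overlapped. dre-miR-10c-5p was at 683, 1033 and 864 CPM against 1306, 1580 and 1545 CPM, without overlap (limma -0.79 ± 0.30, adjusted p = 0.269). The abundant ola-miR-100 was at 15098, 21747 and 20973 CPM against 20389, 14650 and 20646 CPM, and overlapped (limma 0.05 ± 0.22, adjusted p = 0.927). No entry of miR-430, the miRNA that clears maternal transcripts in fish embryos, reached the level for testing.

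Of the remaining entries with small p, dre-miR-301b-5p was at 8.34, 10.8 and 8.26 CPM against 3.74, 3.96 and 4.18 CPM, tight in both groups and apart. Its limma log2 difference was 1.03 ± 0.28 with an adjusted p of 0.158, and of 0.0376 without the normoxia 0 h library that stood apart. dre-miR-30a-3p was at 27.7, 23.0 and 23.3 CPM against 13.7, 15.5 and 13.5 CPM, also apart (limma 0.75 ± 0.23, adjusted p = 0.204). The more abundant entry of that name, hsa-miR-30a-3p, was at means of 603 and 674 CPM and overlapped, with a limma log2 difference of -0.16 ± 0.23, and of -0.04 without gradual library 1. Among 25 tested predicted entries novel_493 was at 6.57, 9.75 and 7.72 CPM against 18.1, 22.5 and 22.04 CPM, without overlap (limma -1.29 ± 0.84, adjusted p = 0.504 over 8 groups and 0.0376 over the 6 libraries).

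Where both arms of a hairpin were tested by name, most pairs had changes of the same sign. Of 43 such pairs 2, those of miR-126 and miR-9, had the same level in every library and so share reads. Of the other 41, 30 had log2 changes of the same sign and 33 lay within 0.5 of each other, with a median absolute gap of 0.22. How often unrelated entries lie as close was not tested. The miR-145 arms were at -1.19 and -0.87 on the log2 scale, the miR-144 arms at 1.10 and 1.88, and the miR-22a arms at 0.48 and 0.29. Other pairs differed, with the miR-194b arms at -2.53 and -0.11, the miR-148a arms at 0.36 and -0.55, and the miR-142 arms at 0.62 and -0.12. These are descriptions, since arm names from other species need not match the arm in pompano.

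Gradual and rapid reoxygenation at 3 h, compared directly over the same 547 entries, gave 0 entries past the limma test (0%), with 55 (10.1%) at an unadjusted p under 0.05 and 113 (20.7%) without overlap. edgeR passed 5 entries, at lower levels in gradual reoxygenation. They were entries of miR-10 and miR-10a, at gradual means of 0.18 to 0.69 CPM, and of miR-30a-5p, at 2.57 CPM. Entries of these names may share reads, so the 5 are not separate miRNAs. Their edgeR log2 differences were -4.42 to -7.61. Limma passed none of the 5 with all libraries, but all of them without rapid library 1, at -4.06 to -5.41. At 0.18 CPM dme-miR-10-5p reached the filter only through the hypoxia libraries. The comparisons of gradual and of rapid reoxygenation with hypoxia 0 h share the same hypoxia libraries. The entry with the smallest p was novel_431, at 1.73, 0.872 and 1.54 CPM in gradual and at 0.0944, 0.0936 and 0.139 CPM in rapid reoxygenation. Its limma log2 difference was 1.08 ± 0.23, with an adjusted p of 0.0887. The filter did not use the rapid libraries, and this entry reached it through gradual libraries 1 and 3, where it is high. In rapid libraries 1 and 2 its values are those of 3 reads. This difference is therefore a description and its p is given no weight.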

How the data were processed

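Single-end reads of 50 bases had been made from liver RNA extracted with Trizol, per the labels' protocols. Bowtie, with no version, is named in the submitters' processing notes, and those sources name no genome build, annotation or counting tool. The authors deposited 1 table of miRNA values, named TPM, with 22 library columns and 8 columns of group means. These deposited values are CPM: each library column sums to 1000000, and 99.2 to 100% of values in the 6 libraries are whole multiples of 1 read within 0.01, so reads per entry could be recovered without scaling by length. A read counts once in each entry it matches.

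The deposited means of both groups equal the means of their libraries. Repeated rows were removed, and log2(CPM + 1) of entries reaching 1 CPM in 2 or more of the 6 libraries was fitted with limma 3.58.1 (R 4.3.3, mean-variance trend, 8 groups, no covariates), adjusting over 547 entries at a threshold of 0.05. Alternatives used recovered reads in edgeR 4.0.16 and DESeq2 1.42.0, other pseudocounts, filters, scalings and sample sets. The fits were tested on simulated data. Figures were drawn with matplotlib 3.10.9 in Python 3.11.15. Named entries are those of the 10 names with the smallest p at a mean of at least 10 CPM, the 10 most abundant names and 10 miRNAs of interest; further list members and entries passing under an alternative were named after their values were seen. A list member stands by its most abundant entry. The members and the lists were chosen with earlier results of these data known. The 95% intervals are limma's and come from the spread among libraries. Read matches summed over entries were 24.8 to 33.8 M per library, which overstates depth where entries share reads. Reference sequences and genome positions of the miRNAs were not used here.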

Additional observations from a re-analysis of the deposited data

How the results depend on the processing

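The comparison of gradual reoxygenation at 3 h with hypoxia at 0 h passed 0 entries in 13 of the 20 alternatives, among them pseudocount 0.5 CPM, no filter, TMM factors (smallest adjusted p 0.0503), quantile normalization, edgeR, repeats kept and 1 entry per name. A pseudocount of 10 CPM passed 5 higher and 0 lower, a mean of at least 10 CPM 4 higher and 0 lower, DESeq2 5 higher and 13 lower, the 6 libraries alone 6 higher and 8 lower, and all groups without 1 normoxia 0 h library 5 higher and 12 lower. In DESeq2, the 6 libraries alone and the fit without that normoxia library, the lower ones include miR-133, miR-135b and the miR-31 type. DESeq2 also passed miR-184. All of these were tested only through the hypoxia libraries. Leaving out each library passed 0 to 2 higher and 0 to 4 lower. Without hypoxia library 1 the 2 higher were miR-34a-5p and the 4 lower miR-184 (tested only through the hypoxia libraries). Without gradual library 1 the 1 lower was miR-153b-3p and the 1 higher novel_137, at means of 4.09 CPM in gradual and 1.02 CPM in hypoxia. Chosen after seeing the data, the 6 libraries with each left out gave 0 to 9 higher and 0 to 25 lower, and edgeR on the 6 libraries 4 higher and 8 lower. Those 4 were of miR-144-3p, miR-451a and miR-2188-5p, without miR-34a-5p. The 8 lower again held the entries of miR-133, miR-135b and the miR-31 type. Gradual against rapid reoxygenation passed 6 higher with a pseudocount of 10 CPM, 5 lower with edgeR, and 0 to 2 higher and 0 to 6 lower with each library left out. The causes of these shifts were not tested. Among the entries named by the rule, 4 differences near 0 changed sign when a library was left out: the log2 difference ran from -0.11 to 0.22 for miR-100 (with -0.043 and -0.017 also below 0), -0.12 to 0.30 for miR-192-5p, -0.12 to 0.43 for miR-210-5p and -0.094 to 0.24 for miR-731-5p (with -0.041 also below 0). miR-107, named from a list, ran from -0.17 to 0.22 with each library left out. The other entries named by the rule kept their direction in every alternative run, except miR-122-5p, which was at 0 after quantile normalization, being the top entry in each library.

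The labels do not state that replicate numbers pair the libraries, and so few correlations cannot settle it. Same-numbered libraries had correlations of their deviations from the group means of 0.114, 0.0338 and 0.198. Differently numbered libraries had correlations from -0.159 to 0.0905. Gradual libraries 1 and 3 correlated best with the hypoxia library of their own number, and gradual library 2 with hypoxia library 3 (0.0905). With the replicate number as a block, 0 entries passed with 8 groups (smallest adjusted p 0.121), 0 with the 6 libraries and 0 against rapid reoxygenation. With 3 libraries a group and a median standard error of 0.33 on the log2 scale, differences of that size could not be detected, and far larger ones could be missed. Over 8 groups miR-144-3p at 1.88 ± 0.44 and miR-34a-5p at 1.80 ± 0.40 did not pass. Levels under about 1 CPM rest on few reads.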
